A study of Saccharomyces cerevisiae with 3 samples.

Results

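Yeast cells that lack a fermentable sugar build glucose from acetate, ethanol or lactate, and 10 genes of that capacity were examined in cells exposed to the fungicide fluazinam. They were FBP1 and PCK1 of gluconeogenesis, ICL1, MLS1 and MDH2 of the glyoxylate cycle, ACS1 of acetate activation, and JEN1, ADY2, ATO2 and ATO3, which encode carriers for lactate, acetate and ammonium. The genes were listed by function and found on the array by the gene symbol of their probe. The list was chosen with earlier results of these data known, so its counts against all features are a description only. All 10 were on the array, among 5203 named genes, and 8 had a value on at least 2 of the 3 arrays. FBP1, MDH2, ACS1, ATO2 and ATO3 had a value on all 3 arrays, PCK1, JEN1 and ICL1 on 2, MLS1 on 1 and ADY2 on none.

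Saccharomyces cerevisiae S288C, a standard laboratory strain, was grown with shaking at 25 C in YPD, a rich medium with 2% glucose. Cultures of 100 ml in exponential growth received fluazinam to 1.5 uM and were exposed for 2 h, and the untreated cells were grown from the same density for a further 2 h without treatment. The labels name neither the solvent of the fluazinam stock nor a solvent added to the untreated cells. The compound, a dinitroaniline used against fungal crop diseases, is known to uncouple oxidative phosphorylation. Each of 3 two-colour arrays compared Cy5-labelled cDNA of treated cells with Cy3-labelled cDNA of untreated cells, and the series' design text describes the arrays as independent biological samples.

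On glucose, yeast represses genes of gluconeogenesis and of the glyoxylate cycle, since running glycolysis and gluconeogenesis together would waste ATP. When glucose runs out, the kinase Snf1 relieves repression by Mig1, and the activators Cat8, Sip4 and Adr1 turn the genes on. Acetate is taken up, activated to acetyl-CoA and fed into the glyoxylate cycle, whose bypass around the decarboxylating steps of the tricarboxylic acid cycle leaves malate for gluconeogenesis. Jen1 and Ady2 import lactate and acetate together with protons, and Ato2 and Ato3 are relatives of Ady2.

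A value is a log ratio per gene and array, read here as log2 of treated over untreated. The log base and the direction were not stated: the direction is the likely one, since Cy5 of the first channel marked the treated cells, and the opposite direction would turn every sign, while a natural logarithm would make every fold larger. Dyes were not swapped, so a dye effect on 1 gene cannot be told apart from the treatment. Probes with a value numbered 4463 to 5245 of 6272 per array, and array medians lay between -0.02 and 0.09. Across the 3802 features with a value on all arrays, Pearson's r between arrays, taken across genes and given as a description, was 0.63 for replicates 1 and 3, 0.51 for replicates 1 and 2, and 0.43 for replicates 2 and 3. Replicates 1 and 3 thus resembled each other more than either resembled replicate 2.

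The transcripts of this capacity tended to sit above the array average. The largest means were those of the phosphoenolpyruvate carboxykinase gene PCK1, the ammonium carrier gene ATO2 and the lactate carrier gene JEN1. Those of PCK1 and JEN1 leave out replicate 1, where neither had a value. On replicate 2, which had a value for all 8 genes tested, JEN1 was at 0.51, below ATO2, MDH2, PCK1, ICL1 and ATO3. ATO2 rose 2.92-fold and was the only one of the 8 to pass the test, at the edge of the threshold. The median of the 8 means was 1.14 on the log2 scale, against 0.03 over all 4979 features tested, and 7 of the 8 means were above the upper quartile of all features, which was 0.43. Of 30 possible spots, 22 had a value, 21 of them above 0 and 1 below 0. Among all features tested, 53.4%, 48.4% and 50.1% of the values on replicates 1 to 3 were above 0. The spots of a gene, and those of an array, are not independent of each other. All 8 means were above 0, as were 52.1% of all means, although that of ATO3 turned below 0 under 2 alternatives given with that gene. These ratios compare the mRNA pools of whole cultures after a normalization within each array. More cells expressing a gene and more RNA per cell therefore cannot be told apart.

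**Figure D1:**
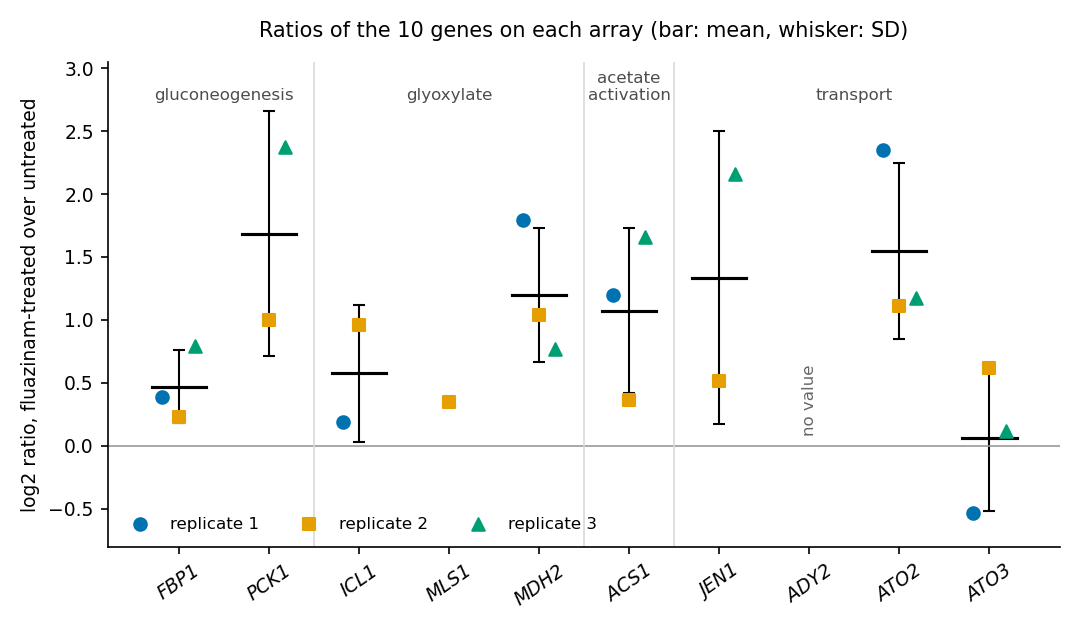
Log2 ratio of fluazinam-treated over untreated cells (vertical axis) for each of the 10 genes (horizontal axis, grouped by role), with 1 symbol per array, a bar at the mean and a whisker of 1 SD. ATO3 on replicate 1 is the only point below 0, and ADY2 has no value.

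The mean of each feature was tested against 0 with limma across all features with a value on at least 2 arrays, and p-values were adjusted by the Benjamini-Hochberg method over all of them. At an adjusted p under 0.05, 114 features (2.29%) were higher in treated cells and 125 (2.51%) were lower. Of the 8 genes, ATO2 was higher and none was lower. At an unadjusted p under 0.05, 5 of the 8 were higher, against 11.9% of all features. Restricted to the 3802 features that no array lacked, the fit called 3.39% higher and 4.47% lower, and ATO2 alone of the 5 genes passed (adjusted p = 0.0379). With all 4979 features, no feature with a mean closer to 0 than 1.17 on the log2 scale passed. The calls depended on the arrays: without replicate 2, ATO2, MDH2 and ACS1 passed among the 5 genes then measured, against 6.78% of features called higher, and without replicate 1 or replicate 3 the numbers of genes and of features called were both 0.

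FBP1 (YLR377C) encodes fructose bisphosphatase, the enzyme that reverses the phosphofructokinase step and commits carbon to glucose. Its log2 ratios were 0.39, 0.23 and 0.79 on replicates 1 to 3. They were above 0 on every array, as for 25.2% of features with 3 values, and none reached 1. The mean was 0.47 ± 0.29 (SD, n = 3), a 1.39-fold ratio with a 95% interval of 0.912 to 2.11, and did not pass (adjusted p = 0.279).

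PCK1 (YKR097W) encodes phosphoenolpyruvate carboxykinase, which turns oxaloacetate into phosphoenolpyruvate at the start of gluconeogenesis. It had no value on replicate 1 and log2 ratios of 1.00 on replicate 2 and 2.37 on replicate 3. Both were above 0, as for 42.1% of features with exactly 2 values, and lay high within their arrays, at the 92.5 and 98.8 percentiles of all features. The mean of 1.68 ± 0.97 (SD, n = 2) was the highest of the group and a 3.22-fold ratio, with a wide interval of 1.54 to 6.71, and did not pass over all features (adjusted p = 0.0851). PCK1 rests on a pair of arrays, and its interval on the log2 scale (0.62 to 2.75) overlapped that of FBP1 (-0.13 to 1.07).

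MDH2 (YOL126C) encodes the cytosolic malate dehydrogenase, which makes oxaloacetate from the malate of the glyoxylate cycle. Its log2 ratios were 1.80, 1.04 and 0.77 on replicates 1 to 3. All 3 were in the upper part of their arrays, from the 83.6 to the 96.6 percentile. The mean was 1.20 ± 0.53 (SD, n = 3), a 2.30-fold ratio with an interval of 1.42 to 3.72, and did not pass (adjusted p = 0.0686). ICL1 (YER065C), isocitrate lyase, which splits isocitrate into succinate and glyoxylate, was at 0.19 on replicate 1 and 0.96 on replicate 2 and had no value on replicate 3. Replicate 1 was near the middle of its array, at the 55.3 percentile, and replicate 2 near the top, at 91.9. Its mean of 0.58 ± 0.55 (SD, n = 2) did not pass (adjusted p = 0.345). MLS1 (YNL117W), malate synthase, which joins glyoxylate with acetyl-CoA, had a single value, 0.35 on replicate 2, at the 72.1 percentile. The enzymes that define the glyoxylate cycle were thus measured on fewer arrays than MDH2, and neither had a value on replicate 3.

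ACS1 (YAL054C) encodes the acetyl-CoA synthetase that yeast makes on non-fermentable carbon. Its log2 ratios were 1.20, 0.37 and 1.65 on replicates 1 to 3. Replicate 2 was the low array, at the 73.1 percentile, while the other two lay at 91.7 and 97.0. The mean was 1.07 ± 0.65 (SD, n = 3), a 2.11-fold ratio with an interval of 1.25 to 3.54, and did not pass (adjusted p = 0.0970). Without replicate 2 it was 1.43 and passed (adjusted p = 0.0163), where 6.78% of features were called higher. ACS1 did not pass without replicate 1 or without replicate 3 (adjusted p = 0.262 and 0.254).

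ATO2 (YNR002C) encodes a plasma membrane protein of the Ato family, reported to export ammonium and closely related to the acetate carrier Ady2. Its log2 ratios were 2.35, 1.11 and 1.17 on replicates 1 to 3. Every array put it between the 92.6 and 98.5 percentiles, and replicate 1 was above the others. The mean was 1.55 ± 0.70 (SD, n = 3), a 2.92-fold ratio with an interval of 1.71 to 4.99. The gene rose by limma's test with an adjusted p of 0.04999, and the call was lost without replicate 1 (mean 1.14, adjusted p = 0.166) and without replicate 3 (mean 1.73, adjusted p = 0.0850). Over all alternatives its adjusted p ran from 0.00643 to 0.360 and its mean stayed between 1.14 and 1.86.

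The other carrier genes gave no call. JEN1 (YKL217W), a proton-coupled carrier of lactate and pyruvate, had no value on replicate 1 and log2 ratios of 0.51 on replicate 2 and 2.16 on replicate 3. The value on replicate 3 lay at the 98.5 percentile of its array, just below PCK1, and both genes were lower on replicate 2. The mean of 1.34 ± 1.16 (SD, n = 2) did not pass (adjusted p = 0.146), with an interval on the fold of 1.13 to 5.66. ATO3 (YDR384C), an Ato family protein also reported to export ammonium, was at -0.54, 0.62 and 0.12 on replicates 1 to 3. It fell on both sides of 0, with a mean of 0.07 ± 0.58 (SD, n = 3, adjusted p = 0.906), and the mean was -0.21 without replicate 2 and -0.24 with sub-grid medians subtracted. ADY2 (YCR010C), the acetate carrier, was listed without a value on every array, so the main acetate carrier was not measured.

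**Figure D2:**
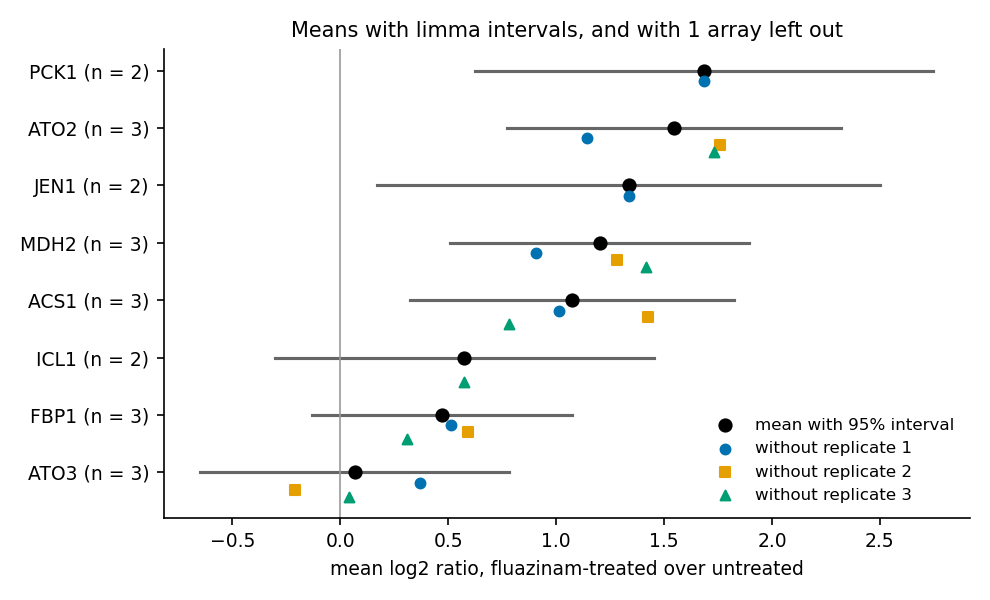
Mean log2 ratio (horizontal axis) of the 8 genes with a value on at least 2 arrays, ordered by mean, with limma's 95% interval as a line and the mean without each array as coloured symbols. The intervals of ICL1, FBP1 and ATO3 include 0, and ATO3 changes sign without replicate 2.

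Ordered by mean log2 ratio, the genes ran PCK1, ATO2, JEN1, MDH2, ACS1, ICL1, FBP1 and ATO3. These means cover unlike arrays, since PCK1 and JEN1 lacked replicate 1 and ICL1 lacked replicate 3. Neighbours in this order differed by 0.10 to 0.50, and the SDs over arrays were 0.29 to 1.16. The step was 0.50 between ACS1 and ICL1 and 0.40 between FBP1 and ATO3. Each was below the SD of at least 1 of the genes it separates. The SD of a gene is not the spread of a difference within arrays, and neighbouring pairs in this order were not tested. The arrays did not rank the genes alike. Among the 5 genes measured on all arrays, ATO2 was highest on replicates 1 and 2 and ACS1 on replicate 3. Their median was 1.20 on replicate 1, 0.62 on replicate 2 and 0.79 on replicate 3. The spread of the genes was narrowest on replicate 2, where 9 genes lay between 0.23 and 1.11, all above 0. Over all probes the SD was also lowest on replicate 2, at 0.80, against 1.01 on replicate 1 and 0.90 on replicate 3. On replicate 1 the range of 6 genes was -0.54 to 2.35, and on replicate 3 that of 7 genes was 0.12 to 2.37. These ranges cover different sets of genes.

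**Figure D3:**
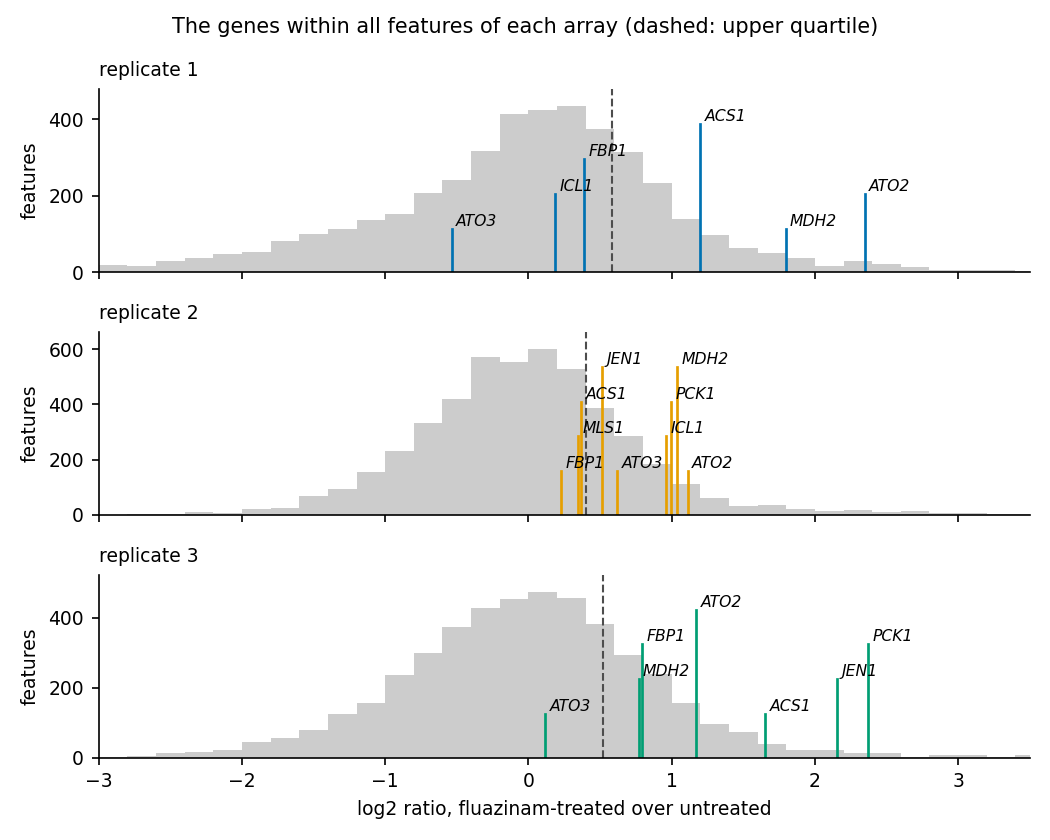
Histograms of the log2 ratio (horizontal axis) of all features with a value on at least 2 arrays, 1 panel per array, with the number of features on the vertical axis, coloured lines for the genes and a dashed line at the upper quartile; values beyond the axis are not drawn. Above the dashed line lie 3 of 6 genes on replicate 1, 6 of 9 on replicate 2 and 6 of 7 on replicate 3.

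Several of these enzymes have a sister protein in another compartment or of another regulation, and the ratios of such pairs were compared within each array. ACS1 was above ACS2, the acetyl-CoA synthetase made on glucose, on 3 of 3 arrays. ACS2 was at -0.45, -1.01 and -1.50 on replicates 1 to 3, with a mean of -0.98 ± 0.52 (SD, n = 3, adjusted p = 0.0974), so this pair lay on opposite sides of 0 on each array. The difference in log2 ratio was 2.06 ± 0.96 (SD, n = 3). MDH2 was above the mitochondrial MDH1 (-0.20 ± 0.24, SD, n = 3) by 1.40 ± 0.66 and above the peroxisomal MDH3 (-0.22 ± 0.77) by 1.42 ± 1.23, in both cases on 3 of 3 arrays. The difference from MDH3 was 2.54, 1.62 and 0.10 on replicates 1 to 3, so it was close to 0 on replicate 3. ATO2 was above ATO3 on 3 of 3 arrays, by 2.89, 0.49 and 1.06. An exact two-sided sign-flip permutation test gave p = 0.25 for each of these 4 pairs, the smallest that 3 arrays allow. It was 0.312 after Benjamini-Hochberg adjustment over the 5 pairs tested. The pairs were added after the values were seen, and any 3 differences of 1 sign give 0.25, so the test cannot decide. ICL1 and ICL2, a mitochondrial enzyme of propionate metabolism, shared 2 arrays and were ordered oppositely on them. MLS1 and DAL7, the other malate synthase gene, shared replicate 2 alone, where MLS1 was at 0.35 and DAL7 at 0.67. Probe sequences were not used here, so signal shared between related transcripts was not tested.

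A further 87 genes around the pathway were grouped in 9 lists. Of the glyoxylate cycle and its supporting genes, 7 of 8 were tested and 1 rose, against 2.29% of all features. That gene was CIT2 (YCR005C), the peroxisomal citrate synthase, at 1.89, 1.37 and 1.80 on replicates 1 to 3. The 3 values were close, with a mean of 1.69 ± 0.28 (SD, n = 3, adjusted p = 0.0364). The list's median was 0.55. In the list of acetyl-CoA supply, which holds aldehyde dehydrogenases and the carnitine shuttle, 9 of 12 genes were tested, with a median of 0.38. Of these, 1 rose, against 2.29% of all features. That was CRC1 (YOR100C), which carries acetyl-carnitine into mitochondria, with values of 2.21, 1.56 and 1.87 and a mean of 1.88 ± 0.32 (SD, n = 3, adjusted p = 0.0363). CIT2 and CRC1 each lost the call without replicate 1 and without replicate 3, as did every feature, while their means stayed above 1.5.

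Glycolytic enzymes were taken in separate lists for steps that run both ways and steps that run one way. The 10 enzymes that work in both directions had a median of 0.35 with none past the threshold, and the largest mean was that of TDH1, a glyceraldehyde phosphate dehydrogenase, at 1.03 ± 0.76 (SD, n = 3, adjusted p = 0.118). The 7 genes of one-way steps had a median of -0.48, and 1 rose, against 2.29% of all features. That was GLK1 (YCL040W), a glucokinase repressed by glucose, at 3.15, 1.24 and 2.71 on replicates 1 to 3, with a mean of 2.36 ± 1.00 (SD, n = 3, adjusted p = 0.0383). Genes of pyruvate carboxylation, mitochondrial pyruvate import and malic enzyme had a median of 0.57 over 5 tested, with none past the threshold. MPC2, a subunit of the mitochondrial pyruvate carrier, had the mean farthest from 0, at 1.42 ± 1.19 (SD, n = 3, adjusted p = 0.112), and was at 0.07 on replicate 3 against 1.84 and 2.34 on the others.

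The regulators of glucose repression gave no call. Of 18 genes, 16 were tested, 10 with a mean above 0, against 52.1% of all features, and the median was 0.46. ADR1, an activator of genes for ethanol and fatty acid use, had the largest mean, 1.07 ± 0.75 (SD, n = 3, adjusted p = 0.111), with 1.46 on replicate 1, 0.21 on replicate 2 and 1.54 on replicate 3. Without replicate 2 its mean was 1.50 and it passed (adjusted p = 0.0115), where 6.78% of features were called higher. ADR1 did not pass without replicate 1 or without replicate 3 (adjusted p = 0.315 and 0.270). Replicate 2 was also the lowest of the measured arrays for FBP1, PCK1, ACS1, JEN1 and ATO2, while it was the highest for ICL1 and ATO3, and MDH2 was lowest on replicate 3.

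The GID ubiquitin ligase destroys Fbp1, Pck1, Icl1 and Mdh2 once glucose returns to starved cells, with Vid24 (also Gid4) as the subunit that binds them. Of its 9 genes, 7 were tested, with a median of 0.49, and 1, VID24 (YBR105C), rose, against 2.29% of all features. Its log2 ratios were 1.95 on replicate 1 and 3.08 on replicate 3, with no value on replicate 2. On replicate 3 it was above the 7 genes of the pathway with a value there, and on replicate 1, where 6 had a value and PCK1 and JEN1 did not, it was below ATO2 and above the others. The mean was 2.52 ± 0.80 (SD, n = 2, adjusted p = 0.0407), and a gene with values on a pair of arrays leans on the variance shared across features. The other 6 genes tested did not pass, and the list's means ran from -0.27 to 2.52.

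Other carriers of ammonium and of carboxylate type had a median of 0.78 over 8 tested of 9. Of these, 7 had a mean above 0, against 52.1% of all features, and none passed the threshold. MCH2, a relative of monocarboxylate permeases, had the largest mean, 1.60 ± 1.35 (SD, n = 3, adjusted p = 0.107). It was at 0.04 on replicate 2, against 2.33 and 2.42 on the other arrays. Without replicate 2 it passed with a mean of 2.38 (adjusted p = 5.28e-04), where 6.78% of features were called higher. It did not pass without replicate 1 or without replicate 3 (adjusted p = 0.287 and 0.259). Genes of the response to weak organic acids were set beside the carriers. The list was chosen with earlier results of these data known, so its counts are a description only. HAA1, the regulator of that response, and 7 targets had a median of 1.47. All 8 means were above 0, against 52.1% of all features, and 3 genes rose, against 2.29% of all features. These were YRO2, a membrane protein related to Hsp30, at 2.34 ± 0.40 (SD, n = 3, adjusted p = 0.0363), YGP1, a secreted glycoprotein, at 1.95 ± 0.35 (0.0363), and the polyamine exporter gene TPO2 at 1.49 ± 0.29 (0.0388). HAA1 itself had a mean of 0.42 (adjusted p = 0.304). HRK1 was at -0.22 and -0.83 on replicates 1 and 2 and at 1.63 on replicate 3. ATO2 lay between TPO2 and YGP1 in mean.

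**Figure D4:**
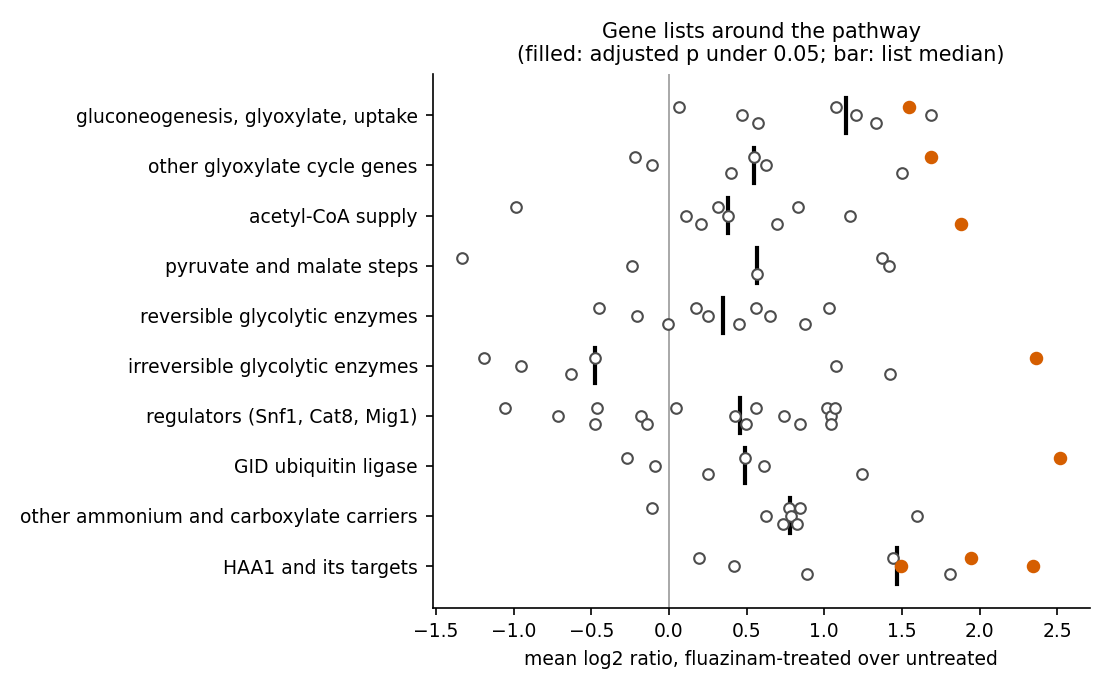
Mean log2 ratio (horizontal axis) of each tested gene, 1 row per list, with the 8 genes of gluconeogenesis, the glyoxylate cycle and uptake in the top row; filled points have an adjusted p under 0.05 and black bars are list medians. List medians run from -0.48 for one-way glycolytic steps to 1.47 for HAA1 and its targets.

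The genes adjacent to the 10 on the chromosomes were looked up in RefSeq R64, for order only. Of 20 neighbours, 17 were tested, with a median of 0.26, and 11 had a mean above 0, against 52.1% of all features. SEC61, the neighbour of FBP1 and the core of the protein channel of the endoplasmic reticulum, was the only one to pass, at -1.82, -1.86 and -2.38 on replicates 1 to 3, against 4.8% of all features called in either direction. CIT1, the mitochondrial citrate synthase next to ATO2, was at -0.30, -0.25 and 0.99, and the other neighbour, RPC34, a subunit of RNA polymerase III, had a mean of -0.50 ± 0.71 (SD, n = 2). Next to ACS1, FLC2 was at 0.92, 0.35 and 1.15 on replicates 1 to 3, with the lowest value on replicate 2 as for ACS1. UBP11, next to PCK1, had a mean of 1.04 ± 0.32 (SD, n = 3, adjusted p = 0.0734), and SRY1, next to JEN1, one of 1.54 ± 1.60 (SD, n = 3, adjusted p = 0.144). These neighbours were named after their values were seen.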

How the data were processed

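Transcript ratios were measured on 3 two-colour arrays. The authors deposited 1 table of log ratios per probe and array, read here as log2 values, after a LOWESS normalization that used unflagged spots (flag 0), per the labels. The scanner, background correction, log base and direction are not given in the sources used here, nor is why spots lack a value. Signal over background is not known, and the number of arrays limits the precision.

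Probes were named by the platform annotation: 5308 of 6272 had 1 symbol, 0 several and 964 none, and 5304 matched RefSeq R64 by Entrez identifier. Probes of a gene were averaged per array. The 4979 features with a value on at least 2 arrays were fitted in R 4.3.3 with limma 3.58.1 (lmFit, then eBayes), intercept only, with a missing spot left out of its row, and Benjamini-Hochberg adjustment over all of them. Where nothing says that the untreated RNAs came from separate cultures, p-values measure only the spread between these arrays.

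The genes and lists were chosen with earlier results of these data known. Paralogue pairs and chromosomal neighbours were added after the values were seen. Named genes were the 10, and of each other list up to 4 past the threshold with the largest absolute mean. Where none passed, it was the gene with the largest absolute mean. HAA1, HRK1 and the genes under the other observations were named outside this rule. Alternatives were 14, listed with their effect in the closing section.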

Additional observations from a re-analysis of the deposited data

How the results depend on the processing

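With all 3 arrays, 114 features were higher and 125 lower. The counts were 177 and 223 with quantile normalization, 1 and 0 without moderation, and 0 and 0 at an adjusted p under 0.01 and in a test against a 1.5-fold change. They were 150 and 193 with array medians subtracted, 154 and 201 with a common median absolute deviation, and 169 and 203 with sub-grid medians subtracted. Leaving out 1 array gave 0 to 267 higher and 0 to 356 lower features, the highest counts without replicate 2. Of the 8 genes, the number called higher was 1 with all arrays. It was 2 with a common median absolute deviation (ATO2 and MDH2), where 3.09% of all features were called higher. It was 3 with quantile normalization (ATO2, MDH2 and PCK1), where that share was 3.55%. It was 0 without moderation, with the first listed probe of each gene (ATO2 at an adjusted p of 0.0504), at 0.01 and against 1.5-fold, and 0 to 3 over the arrays left out. Their median of 1.14 was 0.68 to 1.28 over the arrays left out; 0.68, without replicate 3, holds 6 genes, since PCK1 and JEN1 then have 1 value each. ATO3 was at -0.24 with sub-grid medians subtracted and at -0.21 to 0.37 over the arrays left out, lowest without replicate 2, against 0.07 with all arrays. The same alternatives were run on the lists around the pathway after the data were seen. There, called genes fell to 0 without moderation, at 0.01, against 1.5-fold and without replicate 1 or 3. Calls upward in one-way glycolytic steps went from 1 to 2 with a common median absolute deviation, quantile normalization or sub-grid medians and to 3 without replicate 2, and those in the glyoxylate list from 1 to 2 with a common median absolute deviation, with quantile normalization and without replicate 2. Calls among HAA1 and its targets went from 3 to 6 with sub-grid medians, where 3.39% of all features were called higher. Other carriers went from 0 to 1 with sub-grid medians or without replicate 2. Without replicate 2, where 267 features (6.78%) were called higher and 356 lower, the regulators had 2 upward and 1 downward. In that setting, two-way glycolytic steps had 1 upward, and acetyl-CoA supply and pyruvate and malate steps 1 downward each. No other gene named by the rule changed sign under these alternatives or under robust moderation, array weights or features with a value on all 3 arrays. VID24 has a value on a pair of arrays and could not be tested on features with 3 values or without replicate 1 or 3. The causes were not tested. No paired analysis was possible because each ratio already sets treated against untreated RNA on 1 array and there is 1 group. The number of arrays and the unknown signal over background limit what can be called.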

Other observations

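The genes in this part were picked after their values were seen. Isoenzymes of the one-way glycolytic steps lay apart: the pyruvate kinase gene PYK2, made when glycolytic flux is low, was at 2.36, 0.89 and 1.01 on replicates 1 to 3 (mean 1.42 ± 0.82, SD, n = 3, adjusted p = 0.0734), and the main pyruvate kinase gene CDC19 was at 0.21, -0.60 and -1.51 (adjusted p = 0.305). The hexokinase gene HXK1 was at 1.39, 0.12 and 1.71 (adjusted p = 0.121) and HXK2, the form made on glucose, at -0.84, -1.85 and -0.17 (adjusted p = 0.151). PYK2 was above CDC19 and HXK1 above HXK2 on each array, and none of the 4 passed. The ammonium permease genes MEP1 (0.77 ± 0.34, SD, n = 3), MEP2 (0.85 ± 0.54) and MEP3 (0.79 ± 0.32) were above 0 on every array, and none passed (adjusted p = 0.122, 0.129 and 0.117).

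IDP2, the cytosolic isocitrate dehydrogenase that uses NADP, was at 1.75 on replicate 1 and 1.25 on replicate 2 (adjusted p = 0.0665, n = 2), with no value on replicate 3. SIP4, an activator of gluconeogenic genes, had 1 value, 3.60 on replicate 2. GID10, a relative of VID24, also had 1 value, 2.45 on replicate 2. The aldehyde dehydrogenase gene ALD5 was at 2.80 on replicate 2 and at -1.16 and -1.30 on replicates 1 and 3.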
